A study of Homo sapiens with 8 samples.

Results

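RNA from MCF10A cells transfected with siRNA against p53 (sip53) was compared with RNA from the same line transfected with a control siRNA (siControl), with 2 libraries in each group. MCF10A is an immortalised, non-tumorigenic line of human breast epithelium with basal features. Of the 29991 rows of the deposited expression table, 12315 lay above its floor in at least 2 of the 8 libraries and were tested, and 17422 lay at the floor in all of them. The other 4 libraries came from cells given siRNA against LATS1 and LATS2, kinases of the Hippo pathway, alone (siLATS) or together with p53 siRNA (siLATS_p53). Within each group the libraries numbered 1 and 2 came from separate batches of cells, so sip53 1 and siControl 1 share a batch, as do sip53 2 and siControl 2. All 8 libraries share the line and the siRNA procedure. The siRNA sequences, the dose, the time after transfection and whether each siRNA was a pool are not stated in the labels.

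The p53 protein is a transcription factor that binds paired copies of a short DNA element and switches on genes for cell cycle arrest, cell death, DNA repair and metabolic control. MDM2, itself a p53 target, marks p53 for degradation, so a feedback loop keeps the protein scarce in unstressed cells while some of its targets are still transcribed. By raising the CDK inhibitor p21, p53 also lets the RB family and the DREAM complex shut genes of DNA replication and mitosis, which carry E2F and CHR promoter elements.

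Expression is given as deposited log2 levels, in which every value under 5 had been set to 5. A difference is the sip53 mean minus the siControl mean on that scale, with its standard error (SE) from limma, and p-values are adjusted by the Benjamini-Hochberg method over all rows tested. The fit kept the batch of cells as a block, and a row was called at an adjusted p under 0.05. Read depth, estimated from the spacing of low values, was 29.4 and 25.6 M reads in sip53 and 12.1 and 25.8 M reads in siControl (M, 1000000), so siControl 1 was the shallowest of these 4. All 12 basal epithelial markers were above the floor in sip53 and in siControl, 4 of 7 luminal markers were above it in both groups while KRT19 and PGR were at the floor, and 10 of 11 blood and endothelial markers were at the floor in these 4 libraries. The summed linear level of the basal markers was 265200 and 336500 in sip53, against 347700 and 457400 in siControl, lower in sip53 in each batch. These 7 luminal markers summed to 3874 and 2929 in sip53, against 3498 and 2702 in siControl, higher in each batch. A longer luminal list, with 12 genes tested, went the other way. It summed to 42810 and 36290 in sip53, against 48130 and 52360 in siControl, so the direction depends on the genes chosen. The fibroblast markers summed to 1817 and 922.5 in sip53, against 2849 and 1431 in siControl, with 3 of 9 above the floor.

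Across the table, 1965 rows rose (16.0% of those tested) and 1234 fell (10.0%) after p53 knockdown. All 3199 had the same sign in both batches, which the call itself favours, so it is no separate support. Of 12168 rows with a unique symbol, called or not, 5617 were higher in sip53 in both batches and 3310 were lower in both. Of the rows called, 103 were at least 2-fold lower and 44 at least 2-fold higher. In bulk RNA, fewer cells of a kind and less RNA per cell cannot be told apart. The block decides how many rows pass. Without it 217 rows rose (1.76%) and 258 fell (2.10%), all of them called with it as well. Both sip53 libraries lay above both siControl libraries in 31.4% of rows tested and below both in 18.0%. The batch 1 and batch 2 differences correlated at r = 0.714 across the 12315 rows, which are not independent replicates and share the normalisation. The spread was estimated from all 8 libraries. With only the 4 sip53 and siControl libraries no row passed in limma, with or without the block, although 4072 with it and 2221 without it had an unadjusted p under 0.05. Rescaling the columns by medians of ratios brought the median difference of all rows to 0.0037, against 0.0643 as deposited, and gave 1353 higher and 1668 lower calls, so the balance of rises and falls depends on the scaling.

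**Figure D1:**
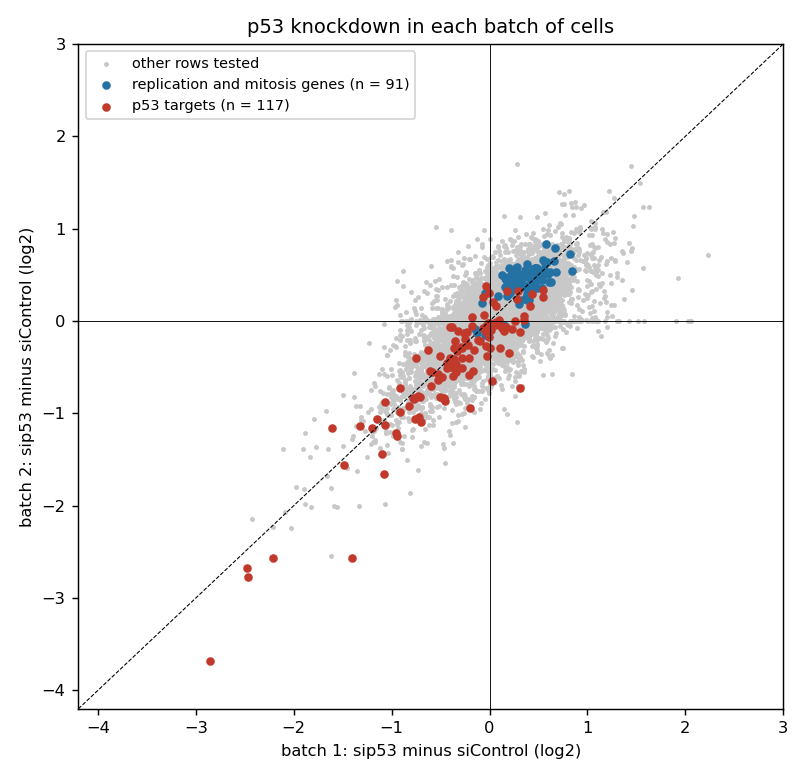
Difference sip53 minus siControl (log2) in batch 1 (horizontal axis) and batch 2 (vertical axis) for every row tested, with 117 p53 targets in red, 91 replication and mitosis genes in blue and other rows in grey; the dashed line marks equal differences. The p53 targets extend down the diagonal and the replication and mitosis genes gather above 0 in both batches.

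Many known p53 targets were lower after the knockdown. Of 117 targets tested, drawn from 5 lists by role, 60 fell and 4 rose, with a median difference of -0.29 against 0.06 over all rows, and 28 fell and 1 rose without the block. After rescaling 68 fell and 4 rose. Both sip53 libraries lay below both siControl libraries for 70 of the 117, and above them for 8, against 18.0% and 31.4% of all rows tested. Another 4 targets were at the floor.

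Among the targets that feed back on p53, TP53INP1, a nuclear cofactor of p53 and of autophagy, was 7.25 and 6.91 in sip53, against 9.46 and 9.48 in siControl. MDM2, the ubiquitin ligase gene, was 11.14 and 11.05 in sip53, against 12.34 and 12.20 in siControl. In both genes every sip53 library lay below every siControl library, and they fell by 2.39 ± 0.13 and 1.18 ± 0.08 (adjusted p = 7.36e-08 and 7.76e-07). CCNG1, an atypical cyclin gene, was 11.58 and 11.53 in sip53, against 12.02 and 12.04 in siControl. It fell by 0.47 ± 0.09 (adjusted p = 0.00158), a call not made without the block (0.087) or without sip53 1. Of 7 feedback genes 3 fell and 0 rose. The p53 inhibitors MDM4 (-0.23 ± 0.09, adjusted p = 0.0685) and PPM1D (-0.11 ± 0.12, 0.53), named after their values were seen, did not pass, although MDM4 fell after rescaling (adjusted p = 0.0349).

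The arrest genes included GDF15, whose fall was the largest of any tested row with a unique symbol. CDKN1A, which encodes the CDK inhibitor p21, was 9.82 and 10.06 in sip53, against 12.29 and 12.83 in siControl. GDF15, a secreted stress cytokine gene of the TGF-beta family, was 6.87 and 5.62 in sip53, against 9.72 and 9.30 in siControl. The groups were far apart in both genes, and GDF15 in sip53 2 came close to the floor of 5, which limits how low it can read. CDKN1A fell by 2.62 ± 0.09 (6.14-fold, adjusted p = 4.56e-10) and GDF15 by 3.27 ± 0.18 (9.65-fold, 7.54e-08). PLK2, a stress-induced kinase gene, was 9.62 and 9.54 in sip53, against 10.57 and 10.79 in siControl, and BTG2, an antiproliferative gene, was 9.67 and 9.83 in sip53, against 10.40 and 10.64 in siControl. They fell by 1.10 ± 0.08 and 0.77 ± 0.09 and did not overlap between groups. GADD45A, a stress sensor gene, was 8.96 and 8.99 in sip53, against 9.33 and 9.58 in siControl. It fell by 0.48 ± 0.10 (adjusted p = 0.00399), but not without the block (0.106), without sip53 2 or without siControl 2. In all 7 of 10 arrest genes fell and 0 rose, 4 of them without the block.

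**Figure D2:**
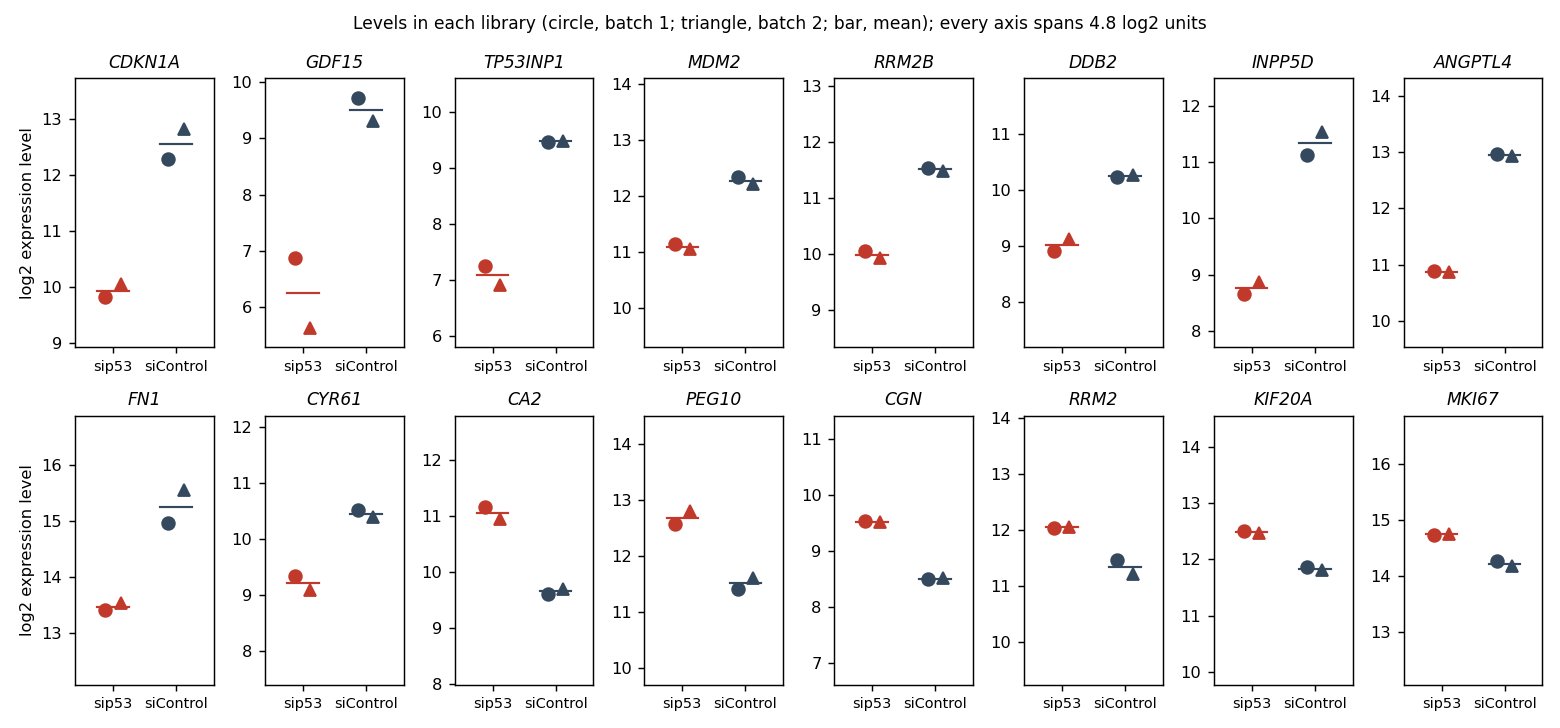
Log2 expression level of 16 genes in each sip53 library (red, left) and siControl library (dark blue, right), with circles for batch 1, triangles for batch 2 and bars for the group mean; every axis spans 4.8 log2 units. In each of the 16 panels the sip53 points lie all below or all above the siControl points.

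In the apoptosis arm 12 of 25 genes fell and 1 rose, 5 and 0 without the block. ZMAT3, an RNA-binding protein gene, was 9.54 and 9.20 in sip53, against 10.63 and 10.64 in siControl. It fell by 1.27 ± 0.11 (adjusted p = 3.66e-06). EDA2R, the ectodysplasin A2 receptor gene of the TNF receptor family, was 7.98 and 7.44 in sip53, against 9.06 and 9.09 in siControl, and fell by 1.37 ± 0.15 (2.37e-05). The TRAIL decoy receptor gene TNFRSF10C was at the floor in both sip53 libraries, against 6.61 and 6.15 in siControl, so its fall of 1.38 ± 0.18 understates the change. TNFRSF10D, the other decoy receptor, fell by 0.81 ± 0.09, and RPS27L, a ribosomal protein paralogue, by 0.87 ± 0.10. These 5 passed without the block as well. The genes TNFRSF10C and TNFRSF10D belong to a family of close copies among which reads can be split. BAX, a pore-forming BCL2 family gene, was 9.17 and 9.44 in sip53, against 9.76 and 10.15 in siControl and fell by 0.65 ± 0.09 (adjusted p = 0.000221, and 0.0769 without the block). PMAIP1 (0.12 ± 0.12, adjusted p = 0.477), BBC3 (-0.21 ± 0.24, 0.561) and FAS (-0.16 ± 0.08, 0.141), which encode NOXA, PUMA and a death receptor, did not pass, and their groups overlapped, although FAS fell after rescaling (adjusted p = 0.0442). The gene that rose was EI24 (0.36 ± 0.08), named after its values were seen, as were BAX, PMAIP1, BBC3 and FAS.

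Targets in DNA repair and metabolism fell in 11 of 22 cases and rose in 1, PCNA (0.26 ± 0.07), which also belongs to the replication list. RRM2B, the p53-controlled subunit of ribonucleotide reductase, was 10.05 and 9.92 in sip53, against 11.53 and 11.48 in siControl. DDB2, a damage-recognition gene of nucleotide excision repair, was 8.92 and 9.13 in sip53, against 10.24 and 10.27 in siControl. C12orf5, which encodes the fructose bisphosphatase TIGAR, was 8.89 and 8.99 in sip53, against 10.04 and 10.05 in siControl. The 3 genes showed no overlap between groups and fell by 1.52 ± 0.10, 1.23 ± 0.10 and 1.11 ± 0.10 (adjusted p = 4.66e-07, 1.5e-06 and 8.17e-06). SPATA18, a gene of mitochondrial quality control, fell by 0.97 ± 0.12. The sestrin genes SESN2 and SESN1, which restrain mTORC1, fell by 0.81 ± 0.10 and 0.77 ± 0.10. All 6 passed without the block.

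Among 53 other targets 27 fell and 2 rose, with 9 and 1 without the block. INPP5D, which encodes the inositol phosphatase SHIP1, was 8.65 and 8.87 in sip53, against 11.13 and 11.54 in siControl. It fell by 2.58 ± 0.09 (5.96-fold, adjusted p = 7.61e-10), a size close to that of CDKN1A. ABCA12, a lipid transporter gene of keratinocytes, fell by 1.10 ± 0.07 (adjusted p = 2.44e-07), and TGFA, an EGF receptor ligand gene, by 0.82 ± 0.07 (4.6e-06). S100A2, a calcium-binding protein gene of basal epithelium, was 14.78 and 15.08 in sip53, against 15.73 and 16.30 in siControl, and fell by 1.08 ± 0.08 with the block (adjusted p = 8.67e-07, and 0.0505 without). TRIM22, an antiviral ubiquitin ligase gene, was 8.88 and 7.52 in sip53, against 10.29 and 10.09 in siControl. Its sip53 libraries differed from each other by over 1 log2 unit, both below siControl, and it fell by 1.99 ± 0.18 (adjusted p = 6.12e-06, and 0.0832 without the block).

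**Figure D3:**
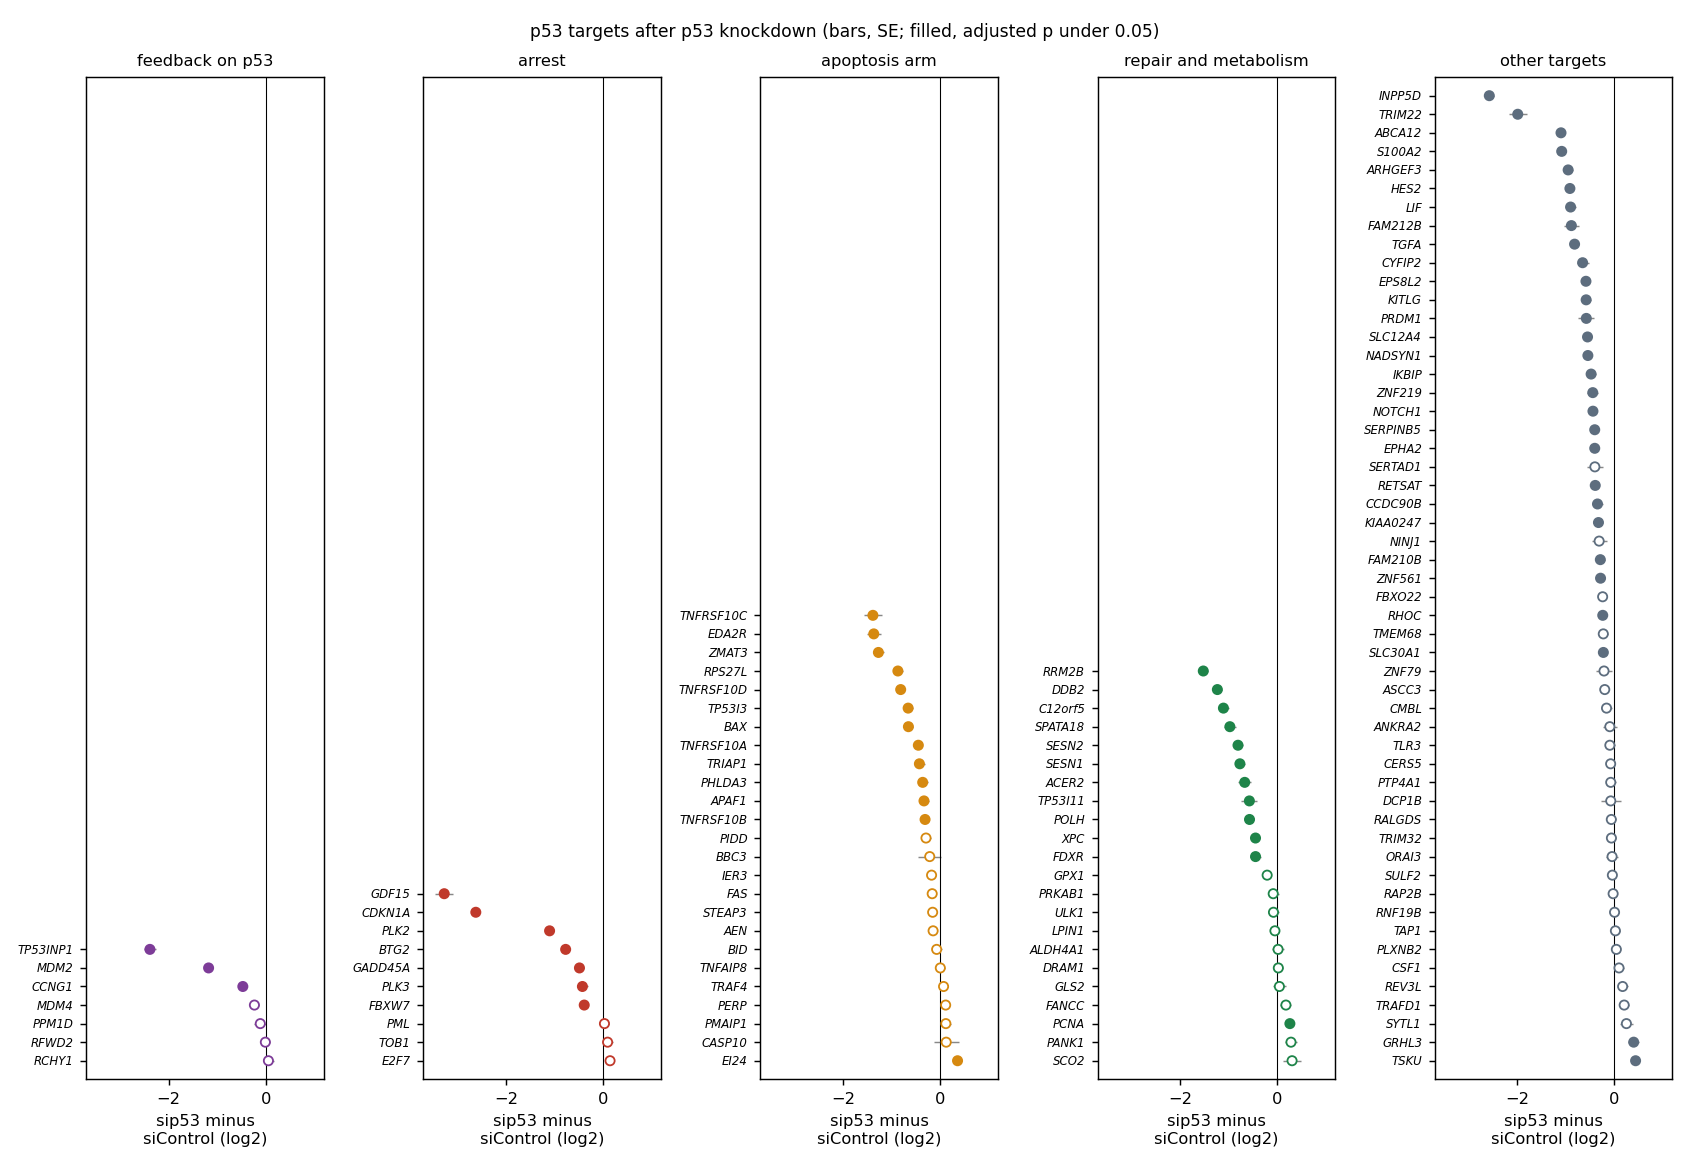
Difference sip53 minus siControl (log2, bars SE) of 117 p53 targets in 5 groups by role, with filled points for genes at an adjusted p under 0.05. CDKN1A, GDF15, INPP5D and TP53INP1 lie below -2, and most open points lie between -0.5 and 0.5.

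Several of the 15 largest falls among well expressed genes lay outside the lists of p53 targets. Genes entered this ranking only if both sip53 libraries lay below both siControl libraries, so the lack of overlap was a condition of entry. IL6R, the interleukin 6 receptor gene, was 8.68 and 8.60 in sip53, against 10.71 and 10.84 in siControl. It fell by 2.13 ± 0.10 (adjusted p = 2.35e-08). ANGPTL4, a secreted inhibitor of lipoprotein lipase, was 10.88 and 10.87 in sip53, against 12.97 and 12.94 in siControl. It fell by 2.08 ± 0.12 (adjusted p = 1.51e-07). PLCH2, a phospholipase C gene, was 8.59 and 8.84 in sip53, against 10.49 and 10.66 in siControl, and CD164, a sialomucin gene, was 12.22 and 11.96 in sip53, against 13.58 and 13.09 in siControl. They fell by 1.86 ± 0.16 and 1.25 ± 0.07 with no overlap between groups. The largest falls also included 4 enzyme genes of lipid metabolism, picked out here for their size, while the list of fatty acid and lipid genes went both ways (10 lower and 8 higher of 36, median -0.01) and does not hold SCD5. FADS3, of the fatty acid desaturase family, was 9.74 and 9.20 in sip53, against 11.07 and 11.21 in siControl. LPGAT1, a lysophospholipid acyltransferase gene, was 11.69 and 11.63 in sip53, against 13.18 and 12.99 in siControl. ELOVL7, a fatty acid elongase gene, was 9.03 and 8.85 in sip53, against 10.43 and 10.09 in siControl, and SCD5, a stearoyl-CoA desaturase gene, was 10.38 and 10.26 in sip53, against 11.60 and 11.59 in siControl. Each of the 4 was lower in every sip53 library, by 1.67 ± 0.13, 1.42 ± 0.07, 1.32 ± 0.10 and 1.27 ± 0.07 (adjusted p = 1.03e-06, 2.35e-08, 8.75e-07 and 7.54e-08), and all 8 genes of this paragraph passed without the block.

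Genes of cell division moved the other way, by smaller amounts. Of 46 DNA replication genes 38 rose and 0 fell (median 0.41), and of 45 mitosis genes 40 rose and 0 fell (median 0.42), against 16.0% of all rows tested that rose. Without the block 13 and 14 rose and 0 fell, and after rescaling 36 rose in each list. The libraries of the 2 groups did not overlap, with sip53 above, for 40 replication genes and 43 mitosis genes, against 31.4% of all rows tested.

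Among replication genes, RRM2, the S phase subunit of ribonucleotide reductase, was 12.04 and 12.05 in sip53, against 11.45 and 11.21 in siControl. CDT1, an origin licensing factor gene, was 9.60 and 9.75 in sip53, against 8.77 and 9.03 in siControl, and CDC6, its partner in loading the helicase, was 10.96 and 10.86 in sip53, against 10.29 and 10.33 in siControl. In all 3 both sip53 libraries were above both siControl libraries, and they rose by 0.71 ± 0.08, 0.77 ± 0.10 and 0.61 ± 0.09 (adjusted p = 3.18e-05, 9.46e-05 and 0.000211), also without the block. The helicase subunits MCM7 (13.09 and 13.33 in sip53, against 12.57 and 12.88 in siControl) and MCM4 (12.98 and 13.15 in sip53, against 12.53 and 12.68 in siControl) rose by 0.48 ± 0.06 and 0.46 ± 0.06, but did not pass without the block (0.14 and 0.0885). MCM2 was 11.62 and 11.69 in sip53, against 11.27 and 11.32 in siControl, and rose by 0.36 ± 0.07 (adjusted p = 0.00203, and 0.051 without the block), a call lost without sip53 2.

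Among mitosis genes, KIF20A, a kinesin gene of cytokinesis, was 12.51 and 12.47 in sip53, against 11.86 and 11.81 in siControl. MKI67, the proliferation marker Ki-67, was 14.74 and 14.75 in sip53, against 14.27 and 14.18 in siControl. Replicates lay within 0.1 log2 of each other in both genes, which rose by 0.66 ± 0.08 and 0.52 ± 0.07 (adjusted p = 6.58e-05 and 0.000136). SPAG5, a spindle protein gene, and NDC80, a kinetochore gene, rose by 0.53 ± 0.07 and 0.60 ± 0.09. HMMR, a spindle-associated hyaluronan receptor gene, was 12.27 and 12.03 in sip53, against 11.73 and 11.37 in siControl and rose by 0.60 ± 0.08 (adjusted p = 0.000115, and 0.0893 without the block). CCNB1 and CDK1, the mitotic cyclin and its kinase, rose by 0.33 ± 0.08 and 0.42 ± 0.08. Neither passed without the block (0.0969 and 0.121) or without sip53 2, and CCNB1 was also lost without sip53 1 or siControl 2.

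The replication and mitosis genes differ in the promoter letters next to their starts. The windows searched ran from 250 bases before to 50 bases after the annotated start, in RefSeq's GRCh38.p14 table, on both strands. The letters TTTGAA or TTCGAA, the core of the CHR element, stood in 30 of 40 mitosis windows (75.0%), in 3 of 40 replication windows (7.5%), in 11.0% of 9618 windows of rows tested and in 16.6% of all 27305 windows. The letters TTTCGCGC or TTTGGCGC, a common form of the E2F element, stood in 11 of 40 replication windows (27.5%) and 2 of 40 mitosis windows (5.0%), against 2.1% of rows tested and 1.18% of all. A match is a description of the letters and not a site of binding. To show how these letters sit beside the start, 4 mitosis and 3 replication promoters chosen after the search are printed with the matches in capitals, each 5′ to 3′ on the gene's strand, from 90 bases before the start to 30 bases from it. HMMR lies at chr5:163460542-163460661 on the plus strand, MKI67 at chr10:128126394-128126513 on the minus strand, PLK1 at chr16:23678799-23678918 on the plus strand and CCNB2 at chr15:59105056-59105175 on the plus strand. MCM7 lies at chr7:100101368-100101487 on the minus strand, CDC6 at chr17:40287789-40287908 on the plus strand and MCM3 at chr6:52284713-52284832 on the minus strand.
HMMR: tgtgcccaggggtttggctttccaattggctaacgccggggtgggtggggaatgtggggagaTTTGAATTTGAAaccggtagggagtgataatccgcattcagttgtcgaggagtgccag
MKI67: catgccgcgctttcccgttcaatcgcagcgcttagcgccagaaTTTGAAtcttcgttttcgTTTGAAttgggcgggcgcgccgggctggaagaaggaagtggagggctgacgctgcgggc
PLK1: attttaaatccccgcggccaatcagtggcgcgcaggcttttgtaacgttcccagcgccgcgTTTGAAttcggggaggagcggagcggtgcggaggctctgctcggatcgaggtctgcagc
CCNB2: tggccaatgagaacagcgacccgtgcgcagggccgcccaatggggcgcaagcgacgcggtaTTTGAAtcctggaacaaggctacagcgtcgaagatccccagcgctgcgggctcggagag
MCM7: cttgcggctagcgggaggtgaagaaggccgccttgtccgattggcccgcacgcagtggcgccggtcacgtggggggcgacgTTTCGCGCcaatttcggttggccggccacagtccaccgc
CDC6: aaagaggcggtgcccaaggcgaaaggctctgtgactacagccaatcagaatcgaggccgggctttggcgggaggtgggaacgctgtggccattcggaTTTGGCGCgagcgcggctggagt
MCM3: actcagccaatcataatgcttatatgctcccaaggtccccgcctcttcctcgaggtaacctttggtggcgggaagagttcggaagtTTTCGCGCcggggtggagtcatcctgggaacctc
HMMR and MKI67 hold the CHR letters at 2 places in these stretches, and the other 5 genes hold their match at 1 place. CCNB2, a mitotic cyclin gene, was 10.87 and 10.82 in sip53, against 10.41 and 10.33 in siControl and rose by 0.47 ± 0.08 (adjusted p = 0.00117). PLK1, the polo-like kinase gene of mitotic entry, was 12.02 and 12.13 in sip53, against 11.47 and 11.63 in siControl and rose by 0.52 ± 0.08 (0.00037), and MCM3, another helicase subunit gene, was 12.46 and 12.52 in sip53, against 11.99 and 12.11 in siControl and rose by 0.44 ± 0.07 (0.000344). These 3 passed without the block. The letters CATG followed by 6 letters of any kind and CATG again, the pair of cores at the spacing found in a p53 element, stood in 2 of 96 windows of p53 targets (2.08%), 0.156% of rows tested and 0.392% of all windows. Many p53 elements lie in introns or farther upstream, outside these windows.

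Some factors that act on such promoters rose. Of 20 genes of the E2F, RB and DREAM list 6 rose (30%, against 16.0% of all rows tested) and 0 fell, 2 without the block. E2F2, an activating E2F gene, was 8.84 and 8.51 in sip53, against 7.77 and 7.50 in siControl and rose by 1.04 ± 0.14 (adjusted p = 0.000143). FOXM1, a transcription factor gene of G2 and mitosis, was 11.70 and 11.72 in sip53, against 11.19 and 11.26 in siControl and rose by 0.49 ± 0.07 (0.000348). MYBL2, its partner on CHR promoters, rose by 0.59 ± 0.09, E2F1 by 0.58 ± 0.10 and E2F8 by 0.88 ± 0.12, none of which passed without the block (0.0548, 0.0668 and 0.0603). Recombination and Fanconi anaemia genes rose in 17 of 23 cases and fell in 0, 4 without the block and 10 after rescaling. FANCA, of the Fanconi core complex, rose by 0.53 ± 0.09 (adjusted p = 0.00083), the helicase gene BLM by 0.57 ± 0.11 and the ubiquitin ligase partner BARD1 by 0.57 ± 0.12. These 3 passed without the block, but BLM and BARD1 were lost without sip53 2.

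CDK inhibitors did not move as a family. While CDKN1A fell, 4 of the 6 inhibitors tested rose (66.7%, against 16.0% of all rows tested). CDKN2C, which encodes p18, was 8.65 and 8.34 in sip53, against 7.45 and 7.40 in siControl and rose by 1.07 ± 0.13 (adjusted p = 7.79e-05). CDKN3, a CDK phosphatase gene, was 9.67 and 9.69 in sip53, against 8.91 and 8.80 in siControl and rose by 0.82 ± 0.11 (0.00019). CDKN1B, which encodes p27, rose by 0.39 ± 0.10, not without the block (0.287), and CDKN1C, p57, rose by 0.66 ± 0.21 from libraries near the floor (0.164 without the block). CDKN1B was lost without siControl 2 or sip53 2, and CDKN1C when any library of sip53, siControl or siLATS was left out. Of 21 cyclins, CDKs and their regulators 9 rose (42.9%) and 2 fell (9.52%, near the 10.0% of all rows tested). The G1 cyclin gene CCNE2 was 8.97 and 9.05 in sip53, against 8.29 and 8.34 in siControl and rose by 0.70 ± 0.11 (adjusted p = 0.000368), and the CDK1 inhibitory kinase gene WEE1 rose by 0.66 ± 0.09 (0.000148). Of 10 histone genes seen in polyadenylated RNA 3 rose and 3 fell, 30% each way (1 and 0 without the block). HIST1H2AC and HIST1H2BK, replication-dependent histone genes, fell by 0.92 ± 0.17 and 0.96 ± 0.18, and H2AFZ, a histone variant gene, by 0.25 ± 0.07, a call lost without siControl 1 or either sip53 library. The linker histone gene H1F0, which is not tied to S phase, was 9.84 and 9.86 in sip53, against 9.05 and 9.16 in siControl and rose by 0.75 ± 0.09 (8.11e-05). CCNE2, WEE1 and H1F0 passed without the block.

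Targets of YAP and TAZ, the coactivators that LATS kinases restrain, fell in 14 of 35 cases and rose in 2 (median -0.25), with 5 and 1 without the block and 20 and 2 after rescaling. Beside the 10.0% and 16.0% of all rows tested, 40% fell and 5.71% rose. CYR61, a matricellular gene, was 9.34 and 9.08 in sip53, against 10.51 and 10.39 in siControl, and CTGF, its relative, was 7.20 and 6.98 in sip53, against 8.46 and 8.45 in siControl. The groups did not overlap, and they fell by 1.24 ± 0.08 and 1.36 ± 0.12 (adjusted p = 2.36e-07 and 4.97e-06). HBEGF, an EGF receptor ligand gene, fell by 0.70 ± 0.09. These 3 passed without the block. AXL, a receptor tyrosine kinase gene, fell by 0.92 ± 0.08 and CCDC80, a matrix protein gene, by 1.17 ± 0.12, with 0.0562 and 0.0548 without it. BIRC3, an inhibitor of apoptosis also driven by NF-kB, was 13.25 and 13.20 in sip53, against 12.79 and 12.64 in siControl and rose by 0.51 ± 0.07 (adjusted p = 0.000111).

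Within the Hippo pathway itself 7 of 27 genes fell and 2 rose, 2 and 0 without the block. These shares were 25.9% and 7.41%, beside 10.0% and 16.0% of all rows tested. YAP1 was 11.81 and 12.08 in sip53, against 12.54 and 12.63 in siControl and fell by 0.64 ± 0.07 (adjusted p = 2.64e-05). FRMD6, an upstream FERM-domain gene, was 10.16 and 10.44 in sip53, against 11.14 and 11.22 in siControl and fell by 0.88 ± 0.08 (6.01e-06). VGLL3, a TEAD cofactor gene, fell by 0.44 ± 0.09, not without the block (0.0979) or sip53 1. LATS1 was 9.87 and 9.94 in sip53, against 9.54 and 9.64 in siControl, a difference of 0.31 ± 0.11 close to the threshold (adjusted p = 0.0454, 0.174 without the block, 0.0923 after rescaling, and lost when any library of sip53, siControl or siLATS was left out). LATS2 was 9.74 and 10.00 in sip53, against 9.92 and 10.22 in siControl, with overlapping groups and a difference of -0.20 ± 0.11 that did not pass (adjusted p = 0.205).

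Genes of the mesenchymal, contractile and matrix programmes were mostly lower where they passed. Of 21 mesenchymal genes 8 fell and 0 rose (4 without the block), of 26 actomyosin genes 9 fell and 0 rose (4), of 29 matrix genes 11 fell and 3 rose (4 and 1), and of 14 integrins 7 fell and 0 rose (0). Beside the 10.0% of all rows tested, the shares that fell were 38.1%, 34.6%, 37.9% and 50%. The 3 fibroblast markers tested fell with them, FAP by 0.72 ± 0.09, COL1A1, which the mesenchymal list also holds, by 0.64 ± 0.17 and DCN by 0.60 ± 0.17 (0 without the block). COL1A1 kept its call only when siControl 1 or sip53 1 was the library left out, and DCN was lost without siControl 2 or any library of sip53 or siLATS. DCN was 9.53 and 6.14 in sip53, against 9.86 and 7.02 in siControl, with a larger gap between batches than between groups. The lower summed fibroblast level given above is the sum of these 3 genes alone, so it is no separate measure. Whether cell content had a part in these falls was not tested. FN1, fibronectin, was 13.41 and 13.53 in sip53, against 14.97 and 15.55 in siControl and fell by 1.79 ± 0.09 (3.45-fold, adjusted p = 3.66e-08). TAGLN, a smooth muscle actin-binding protein gene, was 8.38 and 8.23 in sip53, against 9.42 and 9.66 in siControl, and MYL9, a myosin light chain gene, was 5.91 and 5.69 in sip53, against 7.37 and 7.28 in siControl. Both were lower in every sip53 library and fell by 1.23 ± 0.10 and 1.53 ± 0.14 (adjusted p = 2.85e-06 and 7.6e-06). VIM, vimentin, was 12.59 and 12.71 in sip53, against 13.14 and 13.16 in siControl and fell by 0.50 ± 0.08, and ACTA2, smooth muscle actin, fell by 1.12 ± 0.15. SNAI2, which encodes the transcription factor SLUG, was 10.10 and 10.55 in sip53, against 11.08 and 11.45 in siControl and fell by 0.94 ± 0.08 with the block (adjusted p = 5.16e-06, and 0.0593 without).

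Laminin chain genes of the epithelial basement membrane fell as well. LAMB3 was 15.20 and 15.46 in sip53, against 16.13 and 16.39 in siControl, and LAMA3 was 15.26 and 15.48 in sip53, against 16.09 and 16.36 in siControl. In both, every sip53 library was lower, by 0.93 ± 0.08 and 0.86 ± 0.07 (adjusted p = 3.66e-06 and 3.66e-06), also without the block. ITGB4, a laminin-binding integrin subunit gene, was 13.68 and 14.04 in sip53, against 14.46 and 14.88 in siControl and fell by 0.81 ± 0.07 (adjusted p = 4.69e-06, and 0.0693 without the block). Of 19 basal markers 9 fell (47.4%, against 10.0% of all rows tested) and 1 rose, 2 and 0 without the block. The lower summed basal level given above includes LAMB3, LAMA3, ITGB4 and TP63, so it is no separate measure. Whether cell content had a part in these falls was not tested. TP63, the p53 family member that maintains basal cells, was 10.29 and 10.51 in sip53, against 10.86 and 11.12 in siControl and fell by 0.59 ± 0.08 (adjusted p = 0.00013, and 0.109 without the block). The collagen gene COL12A1 was 12.63 and 12.30 in sip53, against 11.86 and 11.44 in siControl and rose by 0.82 ± 0.07 (adjusted p = 4.97e-06, and 0.0522 without).

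Epithelial junction genes rose in 11 of 36 cases and fell in 5 (4 and 1 without the block, 11 and 8 after rescaling). Beside the 16.0% and 10.0% of all rows tested, 30.6% rose and 13.9% fell, so the falls are near the background. CGN, the tight junction protein cingulin, was 9.53 and 9.51 in sip53, against 8.49 and 8.52 in siControl. It rose by 1.02 ± 0.09 (adjusted p = 4.29e-06) with nearly equal replicates. ST14, the membrane protease matriptase, was 13.62 and 13.49 in sip53, against 12.88 and 12.89 in siControl, and GJB2, a gap junction gene, was 11.52 and 11.69 in sip53, against 10.86 and 10.90 in siControl. The claudin gene CLDN7 was 11.94 and 11.56 in sip53, against 11.20 and 10.94 in siControl. These 3 did not overlap between groups and rose by 0.67 ± 0.07, 0.72 ± 0.08 and 0.68 ± 0.08, each also without the block. CDH1, E-cadherin, was 13.44 and 13.19 in sip53, against 13.04 and 12.80 in siControl, higher in sip53 within each batch, and rose by 0.39 ± 0.07 (adjusted p = 0.00158), but not without the block (0.132) or sip53 1. The longer list of luminal markers split, with 4 of 12 higher (33.3%) and 3 lower (25%), or 0 and 1 without the block. ERBB3, a receptor gene of luminal cells, rose by 0.80 ± 0.10 and ELF3, an epithelial transcription factor gene, by 0.72 ± 0.10, while the simple epithelial keratin gene KRT7 fell by 0.66 ± 0.08 (without the block 0.0842, 0.214 and 0.0267). Squamous differentiation genes passed in 5 of 23 cases, 3 higher and 2 lower, shares a little under the 16.0% and 10.0% of all rows tested, and in 0 without the block.

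Some growth-factor response genes fell. Immediate early genes fell in 9 of 21 cases (42.9%) and rose in 2 (9.52%), against 10.0% and 16.0% of all rows tested. Without the block 6 fell and 0 rose. EGR1, a zinc finger factor gene induced by ERK signalling, was 9.52 and 9.67 in sip53, against 10.81 and 10.74 in siControl and fell by 1.19 ± 0.10 (adjusted p = 2.01e-06). KLF6 was 11.62 and 11.91 in sip53, against 12.20 and 12.56 in siControl and fell by 0.61 ± 0.07, and KLF10 was 10.31 and 10.27 in sip53, against 10.85 and 10.93 in siControl and fell by 0.60 ± 0.08 (adjusted p = 2.4e-05 and 0.000143, and 0.101 and 0.0192 without the block). Among 22 genes of ERK feedback and ERBB ligands 5 fell and 4 rose (3 and 0 without the block). These shares were 22.7% and 18.2%, beside 10.0% and 16.0% of all rows tested. DUSP1, a MAP kinase phosphatase gene, was 11.51 and 11.12 in sip53, against 12.14 and 12.16 in siControl and fell by 0.83 ± 0.09 (2.52e-05), while LRIG1, a brake on EGF receptors, rose by 0.64 ± 0.11 (0.000661, and 0.234 without the block). The TGF-beta list split evenly as deposited, with 6 of 22 higher and 6 lower, 27.3% each (0 and 1 without the block). After rescaling 2 were higher and 8 lower, so the even split depends on the scaling. In the Notch list 4 of 14 were higher and 4 lower, 28.6% each (0 and 1 without the block, 3 and 5 after rescaling). The ligand gene JAG2 fell by 0.55 ± 0.10 and NRARP, a Notch-induced feedback gene, rose by 1.06 ± 0.21, neither without the block (0.0548 and 0.138), and NRARP was lost without siControl 2 or sip53 2.

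Interferon-stimulated genes differed more in batch 1 than in batch 2. Of 36 tested 6 rose (16.7%, near the 16.0% of all rows) and 1, TRIM22, fell, and 0 passed without the block. The median difference was 0.67 in batch 1 and 0.05 in batch 2. IFIH1, the RNA sensor MDA5, was 9.61 and 9.30 in sip53, against 9.02 and 8.59 in siControl and rose by 0.65 ± 0.12 (adjusted p = 0.00128), a call lost without sip53 2 or without the block (0.215). Of 11 genes of MHC class I presentation 5 rose (45.5%) and 0 fell, and 0 passed without the block. PSMB8, an immunoproteasome subunit gene, was 9.88 and 9.48 in sip53, against 9.17 and 8.88 in siControl and rose by 0.65 ± 0.09 (0.000182, and 0.138 without the block). Cytokine and NF-kB genes fell in 5 of 22 cases (22.7%, against 10.0% of all rows) and rose in 2 (9.09%), or 1 and 1 without the block. IL1A, an alarmin cytokine gene, was 11.65 and 11.96 in sip53, against 12.38 and 12.48 in siControl and fell by 0.63 ± 0.07 (4.22e-05), also without the block, and IL1B was 9.32 and 8.78 in sip53, against 10.44 and 9.54 in siControl and fell by 0.94 ± 0.13 (0.000216, and 0.185 without).

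Metabolic lists changed in both directions. Of 36 fatty acid and lipid genes 10 fell and 8 rose (6 and 0 without the block). FASN, the fatty acid synthase gene, rose by 0.28 ± 0.08, ELOVL6, an elongase gene, by 0.33 ± 0.07 and SREBF1, a factor of lipid synthesis, by 0.42 ± 0.08, all named after their values were seen and none called without the block, and FASN was not called after rescaling. The largest changes in the list were the falls of INPP5D, ANGPTL4, PLCH2, FADS3, LPGAT1 and ELOVL7 given above. Of 23 sterol synthesis and uptake genes 4 fell and 1 rose, and 0 passed without the block, with STARD4, a sterol carrier gene, at -0.53 ± 0.09 (adjusted p = 0.000836). Of 31 genes of the ATF4 and unfolded protein responses 6 rose and 3 fell (0 and 1 without the block). PHGDH, which begins serine synthesis, was 8.82 and 8.56 in sip53, against 8.07 and 7.19 in siControl and rose by 1.07 ± 0.15 (adjusted p = 0.00018, and 0.115 without the block). Hypoxia and glycolysis genes fell in 5 of 29 cases and rose in 2 (1 and 0 without the block), with VEGFA, a vascular growth factor gene, at -0.46 ± 0.08 (0.0013, and 0.478 without). Lysosome and autophagy genes split, 6 of 34 lower and 5 higher (2 and 1 without the block). Their shares, 17.6% lower and 14.7% higher, stand beside 10.0% and 16.0% of all rows tested. Lower and higher shares were 27.8% and 22.2% in the fatty acid list and 17.4% and 4.35% in the sterol list. In the hypoxia list they were 17.2% and 6.9%. MAP1LC3B, the autophagosome protein LC3B, was 8.84 and 8.93 in sip53, against 9.65 and 9.64 in siControl and fell by 0.76 ± 0.11 (0.000252), and ATP6V0E2, a proton pump subunit gene, was 10.37 and 10.31 in sip53, against 9.39 and 9.68 in siControl and rose by 0.81 ± 0.09 (4.89e-05), both also without the block. Few of the housekeeping genes passed, 5 lower of 52 ribosomal protein genes, 3 higher and 1 lower of 45 respiratory chain genes and 4 higher of 31 proteasome genes, and 0 without the block. Beside the 16.0% higher and 10.0% lower of all rows tested, these shares are 19.4% and 9.68% in the ATF4 list, 0% and 9.62% of ribosomal, 6.67% and 2.22% of respiratory chain and 12.9% and 0% of proteasome genes, so none of the 4 lists stands far above the background in either direction.

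**Figure D4:**
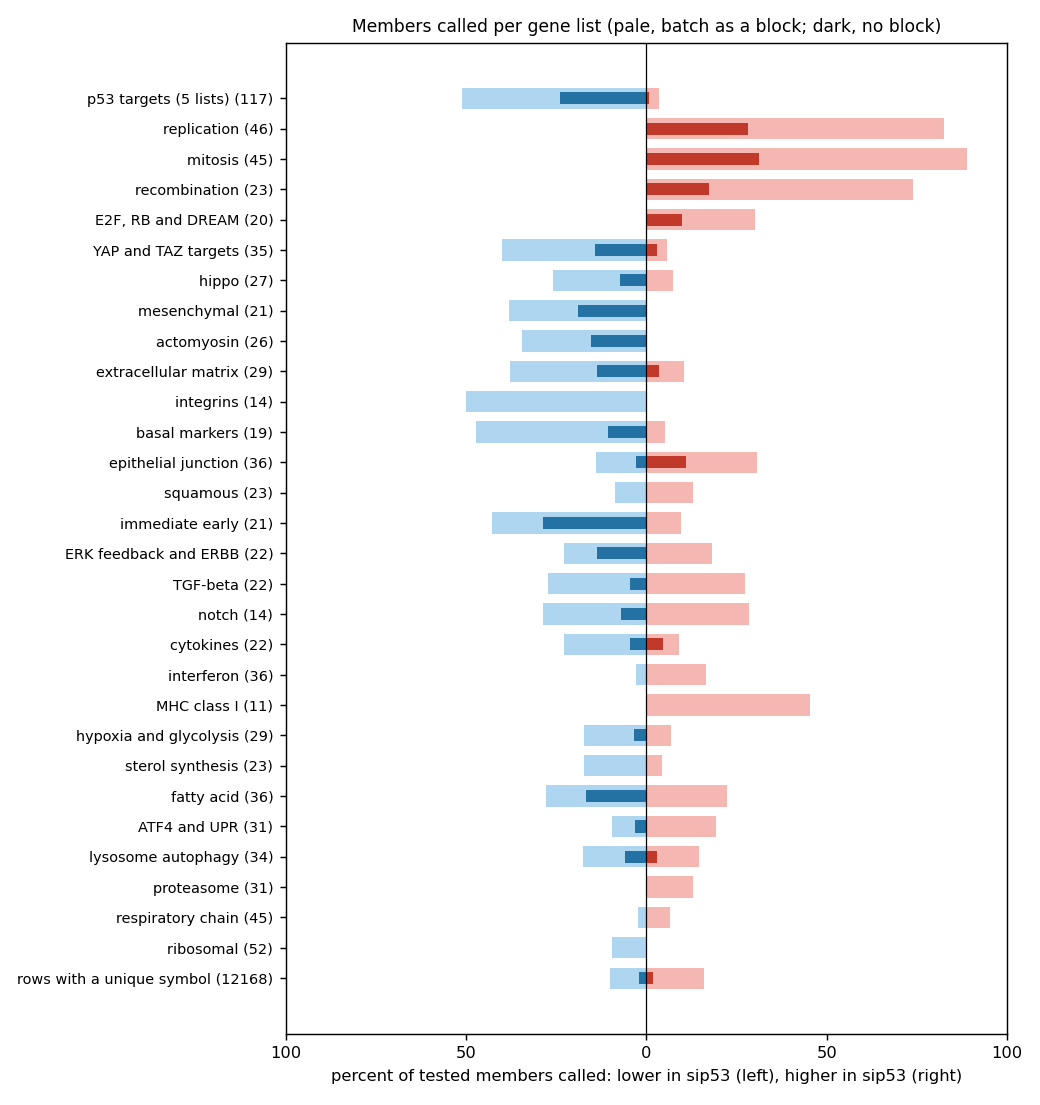
Share of tested members (number in brackets) of selected gene lists that was lower in sip53 (left, blue) or higher in sip53 (right, red), in percent, with pale bars for calls with the batch as a block and dark bars for calls without it. Among the lists plotted, mitosis and replication genes reach farthest to the right and p53 targets farthest to the left, against the bar at the bottom for all rows with a unique symbol.

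The largest rises among well expressed genes were a mixed set. They too entered the ranking only if both sip53 libraries lay above both siControl libraries. CA2, carbonic anhydrase II, was 11.17 and 10.94 in sip53, against 9.60 and 9.70 in siControl. It rose by 1.40 ± 0.10 (2.64-fold, adjusted p = 9.33e-07). PEG10, a gene of retrotransposon origin, was 12.57 and 12.80 in sip53, against 11.41 and 11.62 in siControl. It was higher in every sip53 library and rose by 1.17 ± 0.08 (adjusted p = 4.16e-07). HPSE, the heparan sulfate-cleaving enzyme heparanase, was 10.38 and 10.23 in sip53, against 9.59 and 9.52 in siControl, and SH3RF2, a ubiquitin ligase gene, was 10.63 and 10.74 in sip53, against 9.95 and 9.96 in siControl. They rose by 0.75 ± 0.09 and 0.73 ± 0.08. These 4 and ATP6V0E2 passed without the block, and 9 of the 15 largest rises did not. SECTM1, a secreted T cell ligand gene, was 10.77 and 9.80 in sip53, against 9.62 and 8.80 in siControl, and its sip53 and siControl levels both differed between batches while the difference within a batch was 1.15 in batch 1 and 1.00 in batch 2. It rose by 1.08 ± 0.10 (adjusted p = 4.88e-06, and 0.287 without the block). NMU, a neuropeptide gene, rose by 0.98 ± 0.11, PODXL, a sialomucin gene, by 0.86 ± 0.09, and CYP1B1, a cytochrome P450 gene, by 0.78 ± 0.07, with 0.0865, 0.106 and 0.145 without the block. SMOC1, TMEM38B, LBR and C6orf120 rose by 0.79 ± 0.11, 0.77 ± 0.11, 0.74 ± 0.07 and 0.73 ± 0.08.

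Other regulators and non-coding genes gave single changes. Of 21 regulators of p53 5 fell, MDM2 and TP63 among them, and 3 rose (0 higher and 2 lower without the block). These shares were 23.8% and 14.3%, beside 10.0% and 16.0% of all rows tested. PPP1R13L, which encodes the p53 inhibitor iASPP, was 10.01 and 10.60 in sip53, against 10.67 and 11.02 in siControl and fell by 0.54 ± 0.10 (adjusted p = 0.00111), but not without the block (0.271) or sip53 1. MIR22HG, the host transcript of a microRNA, was 9.58 and 9.46 in sip53, against 10.40 and 10.38 in siControl and fell by 0.87 ± 0.09 (1.81e-05), also without the block. NEAT1, the scaffold RNA of paraspeckles, rose by 0.60 ± 0.14 (0.00612, and 0.131 without the block), a call lost when siControl 2 or any library of sip53 or siLATS was left out. Of 21 S100 and serpin genes 8 fell (38.1%) and 2 rose (9.52%), or 1 and 0 without the block.

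The same knockdown was also made in cells that received LATS1/2 siRNA, in 4 libraries that share batches but no library with sip53 and siControl. There (siLATS_p53 minus siLATS) 4164 rows rose (33.8%) and 1197 fell (9.72%). Of the rows lower in sip53, 708 (57.4%) were also lower there, and of the rows higher in sip53, 1578 (80.3%) were also higher there, while 34 passed in opposite directions. The differences correlated at r = 0.713 across the 12315 rows. CDKN1A differed by -2.62 ± 0.09 in sip53 and by -2.95 ± 0.09 in siLATS_p53, INPP5D by -2.58 ± 0.09 and -2.86 ± 0.09, and GDF15 by -3.27 ± 0.18 and -3.28 ± 0.18. Of the 117 p53 targets 57 fell and 18 rose with LATS1/2 siRNA present. Of the 91 replication and mitosis genes 87 rose and 0 fell there, with a median of 0.70 against 0.42 without it. Over all rows with a unique symbol the median was also higher, 0.16 against 0.06. After rescaling 2004 rows rose and 2190 fell with LATS1/2 siRNA present, so the counts there depend on the scaling. The part of this shift in the larger rise was not tested.

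The difference of these differences was tested as an interaction. It passed for 216 rows in the higher direction (1.75%) and 34 in the lower (0.276%), and in limma without the block for 0 and 0, where 807 rows had an unadjusted p under 0.05. After rescaling 50 rows passed higher and 31 lower, so the imbalance of directions depends on the scaling. ANGPTL4 differed by -2.08 ± 0.12 in sip53 and by -1.08 ± 0.12 with LATS1/2 siRNA (interaction adjusted p = 0.015), and IL6R by -2.13 ± 0.10 and -1.31 ± 0.10 (0.015). ELF3 differed by 0.72 ± 0.10 and 2.04 ± 0.10 (0.00257). VIM fell by 0.50 ± 0.08 in sip53 and differed by 0.00 ± 0.08 with LATS1/2 siRNA (0.0337). None of CDKN1A (0.155), GDF15 (0.991), TP53INP1 (0.981) and MDM2 (0.0872) passed, and of 117 p53 targets 2 passed higher and 1 lower.

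**Figure D5:**
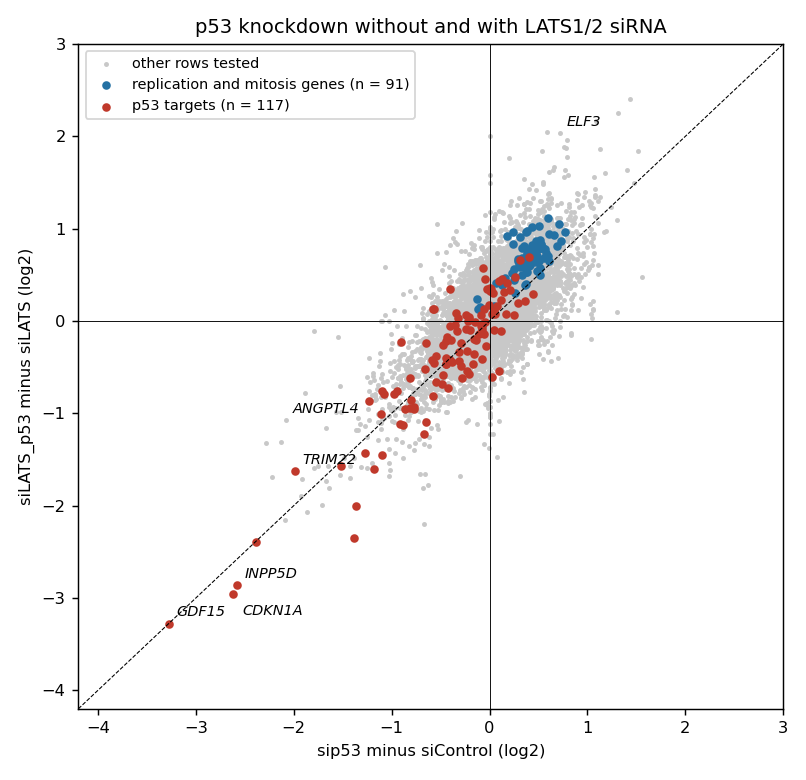
Difference sip53 minus siControl (horizontal axis, log2) against siLATS_p53 minus siLATS (vertical axis, log2) for every row tested, with p53 targets in red, replication and mitosis genes in blue and other rows in grey; the dashed line marks equal differences. CDKN1A, INPP5D and GDF15 lie near the line, ANGPTL4 and ELF3 lie above it, and most replication and mitosis genes lie above it. The median over all rows with a unique symbol also lies above the line, by 0.10.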

How the data were processed

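Polyadenylated RNA from MCF10A cells was made into libraries with TruSeq RNA reagents (version 2), and 8 barcoded libraries shared a lane, per the labels' protocols. This kit is known not to keep strand. The submitters' processing notes name TopHat, without a version, and the hg19 build. How reads were counted and scaled, and on which annotation, is not given in the sources used here. Values deposited by the authors were read as log2 levels with a floor of 5 (32 on the linear scale), and the per-library columns equalled the series table for 8 of 8 libraries. Levels carry no read counts, so no count-based test was run. The spacing of low linear values gave estimates of 11.3 to 37.1 M reads (M, 1000000) per library, and 36.9% to 63.6% of the values lay within 0.1 reads of a whole number, where evenly spread values would give 20%. Between 11756 and 12064 rows per library lay above the floor.

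Differences were fitted on these log2 values with limma 3.58.1 in R 4.3.3 (lmFit, and eBayes allowing for a mean-variance trend). The model covered 4 groups and 8 libraries with the batch of cells as a block (3 residual degrees of freedom). Rows above the floor in at least 2 columns entered, 147 of them under repeated symbols that were not named. No pseudocount was added. The threshold was an adjusted p of 0.05. The labels tag the replicate number as a batch, and the deviations of same-numbered libraries from their group means correlated at 0.565 to 0.726 over the 6 pairs of groups, with a median standard error of 0.102 with the block and 0.143 without it. The block was chosen as the main fit with the counts of both fits already known from an earlier description, so the counts without it stand beside the results. With the block, the p-values rest on how group differences varied between these batches of cells of a line, pooled over the 4 groups. The shift that all groups share between batches is taken out by the block and is not part of that spread.

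The members, the 42 gene lists and the rule for named genes were chosen with earlier results of these data known. The rule took the 15 largest rises and falls among called rows with a unique symbol, above the median level and with groups apart, the smallest p-values of each list (at most 5), 21 readouts, and the 5 largest interactions in each direction. Some genes that it takes are not reported here. Lists are described by counts and medians with no set test. Alternatives were no block, other filters, rescaling (medians of ratios), pseudocounts of 1 and 32, no trend, only 4 libraries, each library left out and, added after seeing the data, only 4 libraries or rescaling without the block. The procedure was tested on simulated data.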

Additional observations from a re-analysis of the deposited data

Results flagged for a closer look

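For 27 named genes the p53 knockdown difference itself differed between cells with and without LATS1/2 siRNA, by the interaction test at an adjusted p under 0.05, and each is given by the difference of differences on the log2 scale, with siLATS_p53 minus siLATS on top. None of the 27 passed this test without the block, and the number of rows called changed with the filter, the scaling and the library left out. The values are not rescaled, and the median over all rows with a unique symbol was 0.0984.

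A positive value stood for a difference that was higher with LATS1/2 siRNA, as a smaller fall, a larger rise or a change of sign. The sign changed, with a fall in sip53 and a rise with LATS1/2 siRNA that both passed, for IL8, SERPINB1, SERPINB5, SLC26A2, H2AFZ and RPL32. Among secreted and signalling genes it was 1.00 for ANGPTL4, 0.82 for IL6R, 1.32 for IL8, 0.59 for BIRC3 and 0.52 for PMEPA1. IL8 differed by -0.71 ± 0.22 in sip53, with overlapping groups, and by 0.61 ± 0.22 with LATS1/2 siRNA. Among epithelial and mesenchymal genes it was 1.32 for ELF3, 0.73 for PPL, 0.48 for KRT7, 0.55 for ITGB6 and 0.51 for VIM. The clade B serpin genes SERPINB1 and SERPINB5 gave 0.97 and 0.75. SERPINB1 differed by -0.58 ± 0.11 in sip53 and by 0.39 ± 0.11 with LATS1/2 siRNA. SERPINB5, which encodes maspin, differed by -0.40 ± 0.07 in sip53 and by 0.35 ± 0.07 with LATS1/2 siRNA.

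Among immediate early genes the value was 0.62 for EGR1, 0.50 for KLF6 and 0.47 for KLF10. Cell division and chromatin genes gave 0.69 for MYBL2, 0.51 for HMMR, 0.45 for MCM2 and 0.60 for H2AFZ. H2AFZ differed by -0.25 ± 0.07 in sip53 and by 0.35 ± 0.07 with LATS1/2 siRNA. The sulfate transporter gene SLC26A2 gave 0.90, with -0.41 ± 0.07 in sip53 and 0.49 ± 0.07 with LATS1/2 siRNA. The ribosomal protein gene RPL32 gave 0.54, with -0.21 ± 0.07 and 0.33 ± 0.07.

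Negative values stood for a difference that was lower with LATS1/2 siRNA, and for ORMDL1 and ZNF37BP the sign changed, with a rise in sip53 (0.26 ± 0.08 and 0.33 ± 0.10) and a fall with LATS1/2 siRNA (-0.24 ± 0.08 and -0.40 ± 0.10). They were found for COL12A1 (-0.46), ORMDL1 (-0.51), OBFC2A (-0.63), ZNF37BP (-0.73), XDH (-0.73) and NEAT1 (-0.92). NEAT1 differed by 0.60 ± 0.14 in sip53 and by -0.33 ± 0.14 with LATS1/2 siRNA.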

How the results depend on the processing

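Each group had 2 libraries, and the numbers of calls rested on the batch block, the spread shared over 4 groups and the low-value filter. No named gene changed direction. Of 208 named genes called after p53 knockdown, 138 passed whichever library was left out, 83 without the block and 201 after rescaling. Most of these genes were picked for small p-values or large differences, which favours stable calls and directions. Removing the block from the fit of all 8 libraries leaves each difference unchanged. The counts for named genes therefore need not hold for all rows called.

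For sip53 against siControl, 1965 rows rose and 1234 fell. With no replicate block 217 rose and 258 fell, and with rescaling and no block 116 and 326. Without any filter on low values 14 rose and 12 fell, with more rows at the floor in the fit. With only the 4 sip53 and siControl libraries, 0 rose and 0 fell in limma, with the block (1 residual degree of freedom) or with no block. Leaving out a library with the block kept gave 462 to 1835 rises and 513 to 1184 falls. They were 980 and 820 without siControl replicate 1, 1210 and 724 without siControl replicate 2, 462 and 513 without sip53 replicate 1, and 575 and 514 without sip53 replicate 2.

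For siLATS_p53 against siLATS, with 4164 rises and 1197 falls, the fit with no replicate block gave 1395 and 396, rescaling 2004 and 2190, and no filter 215 and 88. Leaving out a library gave 1775 to 4276 rises and 526 to 1222 falls, with 1775 and 526 without siLATS replicate 1, 2147 and 611 without siLATS replicate 2, and 2025 and 674 without siLATS_p53 replicate 1.

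For the interaction, with 216 higher and 34 lower, the counts were 0 and 0 with no replicate block, 50 and 31 after rescaling, 23 and 0 for rows above the floor in at least 1 column, 455 and 70 for rows above it in all 8, 1 and 1 with no filter, and 2 and 0 with no mean-variance trend. Leaving out any library gave 0 to 33 higher and 0 to 4 lower. The cause of these shifts was not tested. The estimated depth of siControl 1 (12.1 M reads) limits low genes, and the floor hides changes under 32 on the linear scale.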
